A study of Mus musculus with 12 samples.

Results

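The 10 genes described here encode secreted CCN proteins (Ctgf, Cyr61, Nov and Wisp2), thrombospondins (Thbs1, Thbs2 and Thbs3) and parts or targets of the SRF and YAP transcription pathways (Abra, Srf and Amotl2). They were taken by name, as every non-control probe of the array whose gene name equals a member, which gave 12 probes for 10 genes among 16527 genes and unnamed probes tested. Current symbols are Ccn2 for Ctgf, Ccn1 for Cyr61, Ccn3 for Nov and Ccn5 for Wisp2. All 10 genes had a probe that passed the filter on dim probes.

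RNA from the quadriceps of 12 male C57BL/6J mice aged 13 weeks was hybridised to single-colour Agilent arrays, with 1 mouse on each array. In the exercised group, 6 mice had run on a motorised treadmill for 4 weeks and were sampled 3 hours after their last bout. The other 6 mice were sedentary and shared strain, sex and age with them. Because no trained mouse was sampled at rest, the last bout and the weeks of training cannot be told apart in this design. In whole muscle, fewer cells of a type and less RNA per cell cannot be told apart either. Mice are named below by the set and animal number of their titles, so that s2m3 is animal 3 of set 2. What the sets stand for is not given in the labels.

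CCN proteins are small modular proteins that bind integrins, proteoglycans and growth factors at the cell surface and in the matrix. Among their genes, Ctgf and Cyr61 are known to respond quickly to mechanical load and TGF-beta. Thrombospondins are larger glycoproteins of the matrix and of platelets. Thbs1 is known to restrain capillary growth through Cd36 and Cd47 and to activate latent TGF-beta. Abra, also called STARS, is an actin-binding protein of striated muscle that promotes the movement of SRF cofactors into the nucleus, where SRF binds the CArG box of cytoskeletal genes. YAP and TAZ, held back by the Hippo kinases, act through TEAD factors, and Ctgf, Cyr61 and Amotl2 are standard readouts of their activity.

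The RefSeq promoter table for build GRCm38.p6 held windows for 5 of the 10 genes, namely Cyr61, Thbs2, Thbs3, Srf and Amotl2. Windows of 250 bases before and 50 after the gene start were searched on both strands for the CArG box, the TEAD motif GGAATG and the AP-1 motif TGANTCA. The CArG box occurred in 1.63% of all 32851 windows, the TEAD motif in 14.7% and the AP-1 motif in 7.81%. The 3 windows with a match are printed 5′ to 3′ on the strand of the gene, as the 250 bases before the start, because they show which letters lie upstream of the SRF and YAP genes. Capitals mark the matches. In Cyr61 (chr3:145649986-145650235, minus strand) and Amotl2 (chr9:102717554-102717803, plus strand) the capitals are the TEAD motif read from the other strand. In Srf (chr17:46556163-46556412, minus strand) they are CArG boxes.
Cyr61: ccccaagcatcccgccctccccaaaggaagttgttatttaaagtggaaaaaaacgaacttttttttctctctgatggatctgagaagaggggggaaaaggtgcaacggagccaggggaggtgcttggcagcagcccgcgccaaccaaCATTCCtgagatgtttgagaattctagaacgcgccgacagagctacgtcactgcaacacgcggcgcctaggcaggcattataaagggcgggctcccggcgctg
Amotl2: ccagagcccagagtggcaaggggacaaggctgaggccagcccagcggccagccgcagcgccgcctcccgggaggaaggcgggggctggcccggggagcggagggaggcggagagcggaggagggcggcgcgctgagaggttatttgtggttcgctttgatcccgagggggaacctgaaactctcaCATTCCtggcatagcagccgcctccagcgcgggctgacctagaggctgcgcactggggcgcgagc
Srf: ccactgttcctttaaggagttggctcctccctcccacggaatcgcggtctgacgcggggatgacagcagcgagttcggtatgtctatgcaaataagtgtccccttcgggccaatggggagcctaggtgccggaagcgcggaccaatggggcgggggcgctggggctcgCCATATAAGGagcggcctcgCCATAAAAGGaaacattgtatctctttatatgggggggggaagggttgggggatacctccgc
The TEAD match began 103 bases before the start in Cyr61 and 65 before it in Amotl2, and the CArG matches began 82 and 62 bases before the start in Srf. The windows of Thbs2 and Thbs3 held none of the 3 motifs, and the AP-1 motif was in none of the 5. A match is a description of the letters and does not show that a factor binds there.

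Ctgf, Thbs1 and Abra were higher in exercised muscle, and the other 7 genes did not pass the test. These 3 of 10 genes called higher, with 0 called lower, stand beside 1.8% of all genes called higher and 3.64% called in either direction. The groups did not overlap for the same 3 genes, against 1.39% of all genes whose groups lay apart with exercised higher, 1.62% with exercised lower and 3.01% in all. With slide as a block 2 of the 10 genes were called, beside 2.11% of all genes. With every probe as its own row, 3 of the 10 kept member probes were called, beside 3.31% of kept probes. The median log2 difference (exercised minus sedentary) of the 10 genes was 0.20, with 7 above 0 and 3 below, beside a median of -0.03 over all genes.

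**Figure D1:**
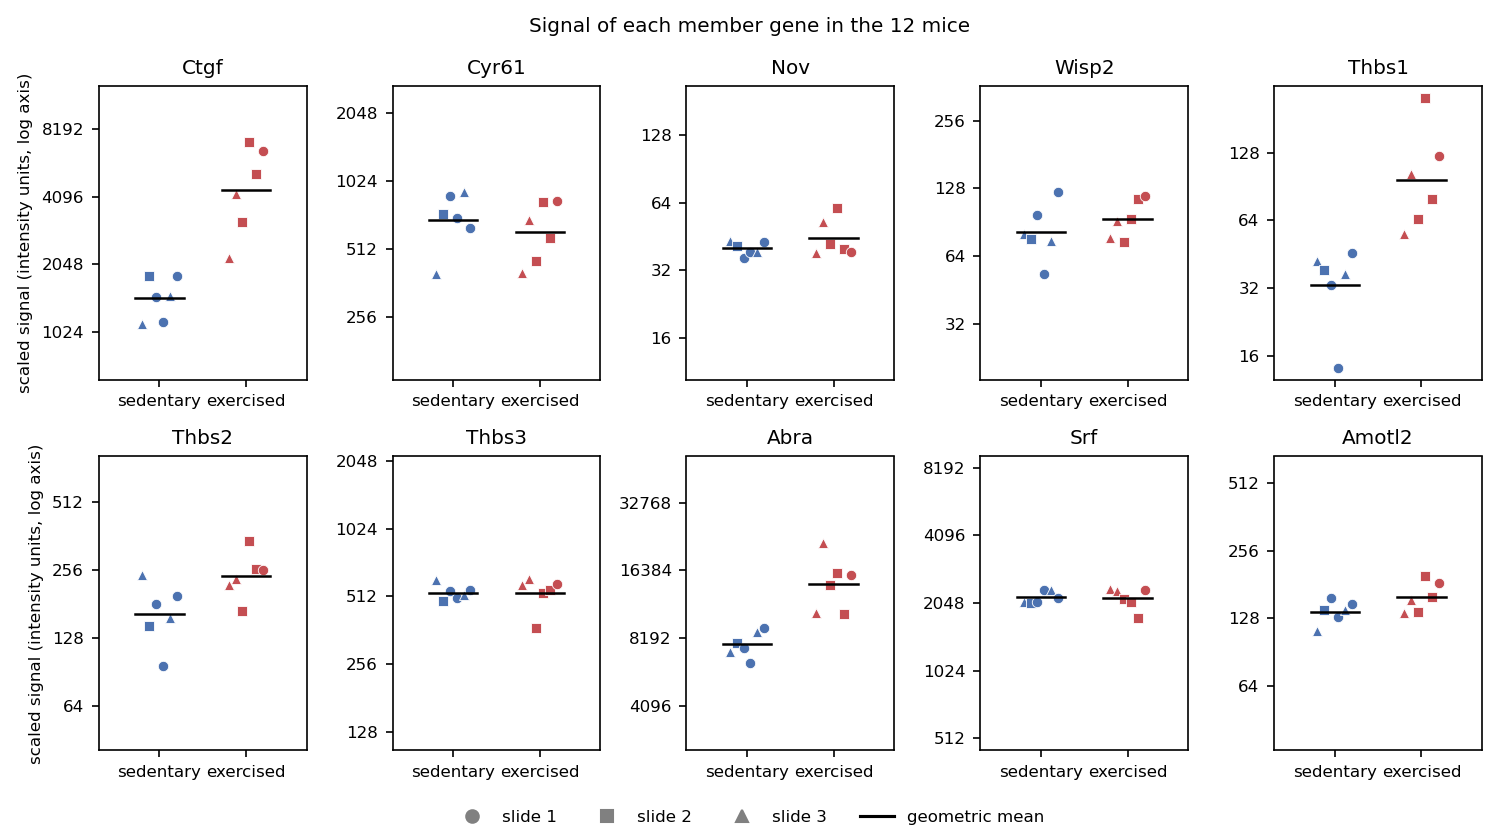
Scaled signal of the probe that represents each gene, in intensity units on a log axis, for the 6 sedentary (blue) and 6 exercised (red) mice. Point shape gives the slide and the black line the geometric mean of a group; every panel spans the same range of fold. Exercised mice lay above all sedentary mice for Ctgf, Thbs1 and Abra, and the groups overlapped for the other 7 genes.

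Ctgf encodes a CCN protein that promotes matrix production by fibroblasts. Its probe (array annotation, mm9, chr10:24318281-24318340, plus strand) gave scaled signals of 2180, 4210, 3160, 7200, 5190 and 6520 in exercised mice s1m1, s1m5, s2m1, s2m3, s2m4 and s2m5. In sedentary mice s1m1, s1m5, s1m6, s2m2, s2m4 and s2m5 it gave 1110, 1820, 1470, 1140, 1490 and 1820. The groups did not overlap, exercised s1m1 was the lowest of its group, and exercised s2m3 was the highest. Exercised mice averaged 4744 ± 1936 (SD, n = 6) and sedentary mice 1474 ± 310. Ctgf rose 3.03-fold (95% interval 2.02 to 4.53; log2 difference 1.60, SE 0.268, adjusted p = 0.00584), which ranked it 156 of all genes by p. Adding slide to the model gave an adjusted p of 0.0157, and the log2 difference was 2.17, 1.43 and 1.24 within slides 1, 2 and 3.

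The other CCN genes did not pass. Cyr61, the CCN gene that shares most roles with Ctgf in adhesion and angiogenesis, ranged from 399 to 833 in exercised (median 632) and from 395 to 918 in sedentary mice (median 718). Its groups overlapped over nearly the whole range, and the log2 difference was -0.18 (SE 0.232, 95% interval -0.68 to 0.32, adjusted p = 0.777). Nov, a CCN protein of nervous and musculoskeletal tissue, was dim, at 38.0 to 60.5 in exercised (median 40.7) and 36.3 to 43.2 in sedentary mice (median 39.7). Exercised s2m3 and s1m5 were the only mice above the sedentary range for Nov, and the log2 difference was 0.15 (95% interval -0.10 to 0.40, adjusted p = 0.588). Wisp2, a CCN protein without the C-terminal domain of the others, ranged from 73.9 to 118 in exercised (median 92.6) and from 53.1 to 124 in sedentary mice (median 78.6). The exercised range of Wisp2 lay inside the sedentary range, with a log2 difference of 0.19 (95% interval -0.21 to 0.60, adjusted p = 0.687).

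Ctgf differed from its relatives in size of change when both were read on the same array, where scaling cancels. The log2 ratio of Ctgf to Cyr61 averaged 2.86 ± 0.29 (SD, n = 6) after exercise and 1.08 ± 0.40 in sedentary mice, a difference of 1.78. This was p = 0.00216 in a two-sided exact permutation test over 924 assignments, the smallest p they can give, and 0.00289 adjusted over the 8 pairs compared. The ratio of Ctgf to Nov differed by 1.45 and that of Ctgf to Wisp2 by 1.41, with the same exact p. All 6 exercised mice lay above the highest sedentary mouse in each of these 3 ratios. The permutation tests of ratios took no account of slide. Within slides 1, 2 and 3 the ratio of Ctgf to Cyr61 differed by 1.98, 1.73 and 1.44.

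Thbs1 was measured by 3 probes, of which a single probe was above background on all arrays. That probe (mm9, chr2:117951775-117951834, plus strand) gave 55.5, 103, 65.3, 225, 79.6 and 124 in exercised mice, in the order used for Ctgf. It gave 42.1, 38.7, 32.9, 14.1, 37.0 and 45.9 in sedentary mice. The groups did not overlap, with exercised s2m3 far above the other mice and sedentary s2m2 far below them. Thbs1 rose 2.94-fold (95% interval 1.73 to 5.0; log2 difference 1.56, SE 0.353, adjusted p = 0.0287). The size of this change depended on the background correction. The probe was dim in sedentary mice, with a mean of 35.1 beside 40.0 for Nov. Under normexp correction with limited background the log2 difference of Thbs1 was 0.74 (limma adjusted p = 0.0467), while Ctgf had 1.61 and Abra 0.91. Adding slide to the model ended the call (adjusted p = 0.116), with a log2 difference of 2.17, 1.45 and 0.94 within slides 1, 2 and 3. It was also lost without exercised s1m5 (0.0625), exercised s2m5 (0.0621), sedentary s1m6 (0.0591) or sedentary s2m4 (0.0562).

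The other Thbs1 probes were well above background on 1 of 12 arrays each, exercised s2m3, and were not tested. The probe at chr2:117948330-117948389 gave 5.96 to 12.4 in exercised and 1.94 to 5.54 in sedentary mice. The probe at chr2:117946712-117946892 gave 2.14 to 7.42 and 2.08 to 2.73. Both groups were largely below background, so these probes give no fold.

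Thbs2, a thrombospondin of fibroblasts and connective tissue, ranged from 169 to 344 in exercised (median 245) and from 96.2 to 243 in sedentary mice (median 169). Its groups overlapped, with 3 exercised mice above the sedentary range, and the log2 difference was 0.57 (SE 0.211, 95% interval 0.11 to 1.03, adjusted p = 0.185). Thbs3, of the subgroup that forms pentamers, ranged from 370 to 613 in exercised (median 562) and from 490 to 607 in sedentary mice (median 529). Exercised s2m1 was the lowest mouse for Thbs3, and the log2 difference was -0.01 (95% interval -0.25 to 0.24, adjusted p = 0.984). The ratio of Thbs1 to Thbs3 differed between groups by 1.56 on the log2 scale (exact permutation p = 0.00216, adjusted 0.00289). That test took no account of slide, and the difference was 2.02, 1.49 and 0.86 within slides 1, 2 and 3. The ratio of Thbs1 to Thbs2 differed by 0.99 (exact permutation p = 0.00433, adjusted 0.00495), with 5 of 6 exercised mice above the highest sedentary mouse.

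Other genes complete the families on the array. Comp and Thbs4, thrombospondins abundant in tendon and cartilage, had log2 differences of 1.1 (adjusted p = 0.160) and 0.72 (0.215). Ccn4 (Wisp1) had 0.44 (0.578), and Ccn6 (Wisp3) was above background on 0 arrays. Of the 10 tested CCN and thrombospondin genes 2 rose, the members Ctgf and Thbs1 already counted, and 0 fell, beside 1.8% of all genes called higher and 3.64% in either direction. The median was 0.51, and 0 of the 3 non-members were called.

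Abra rose in all exercised mice relative to the sedentary range. Its probe (mm9, chr15:41697520-41697579, minus strand) gave 10600, 21600, 14100, 16000, 10500 and 15600 in exercised and 7110, 7790, 7400, 6320, 8740 and 9070 in sedentary mice. The groups did not overlap, and exercised s1m5 was the highest. The fold was 1.86 (95% interval 1.45 to 2.39; log2 difference 0.89, SE 0.166, adjusted p = 0.0104), with 1.05, 0.78 and 0.94 within the 3 slides, and 0.0373 was its adjusted p once slide was in the model. The call was lost without both exercised s2m3 and sedentary s2m2 (0.0553).

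Srf, the transcription factor itself, ranged from 1755 to 2355 in exercised (median 2227) and from 2036 to 2343 in sedentary mice (median 2118). The groups overlapped, and the log2 difference was -0.01 (SE 0.0810, 95% interval -0.19 to 0.16, adjusted p = 0.966). The log2 ratio of Abra to Srf was 2.73 ± 0.35 in exercised and 1.83 ± 0.22 in sedentary mice, a difference of 0.91 (exact permutation p = 0.00216, adjusted 0.00289).

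Amotl2, an angiomotin that binds YAP at cell junctions, ranged from 135 to 197 in exercised (median 157) and from 113 to 157 in sedentary mice (median 139). The groups overlapped, with exercised s2m3 and s2m5 the highest, and the log2 difference was 0.22 (SE 0.110, 95% interval -0.02 to 0.46, adjusted p = 0.359). The ratio of Ctgf to Amotl2 differed by 1.38 (exact permutation p = 0.00216, adjusted 0.00289). The ratio of Cyr61 to Amotl2 was lower in exercised mice by a log2 difference of -0.40 (exact permutation p = 0.0498, adjusted 0.0498). That call was lost without any of exercised s1m1, s2m1, s2m3 or s2m4 or sedentary s1m5, s1m6, s2m2 or s2m4, at adjusted p from 0.0563 to 0.0996.

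Tendon markers were set beside the 10 genes, and neither a marker nor the score of the list passed after adjustment. All 10 tendon markers had log2 differences above 0 (median 0.82, 0 called). Among them were the tendon cell gene Tnmd at 1.11 (adjusted p = 0.153) and the matrix proteoglycan gene Fmod at 0.92 (0.122). The marker Scx was almost flat, at 0.04 (0.940). The tendon score, the mean log2 deviation of the list in each array, was 0.39 ± 0.51 (SD, n = 6; -0.40 to 1.12) in exercised and -0.39 ± 0.58 (-1.51 to 0.04) in sedentary mice. Its difference had p = 0.0238 in a two-sided exact permutation test, adjusted 0.114 over 10 marker lists. Exercised s2m3, highest for Ctgf and Thbs1, had the highest score, and sedentary s2m2, lowest for Thbs1 and Thbs2, had the lowest. With the tendon score as a covariate none of the 10 genes was called. The log2 difference was 1.16 for Ctgf (adjusted p = 0.0744), 0.70 for Thbs1 (0.175) and 0.78 for Abra (0.104). This fit called 316 genes in all, against 601 without the score. Because the score itself differed between the groups before adjustment, a lost call in this fit cannot separate tendon RNA from the group. Comp and Thbs4 are in both the tendon and the thrombospondin lists.

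**Figure D2:**
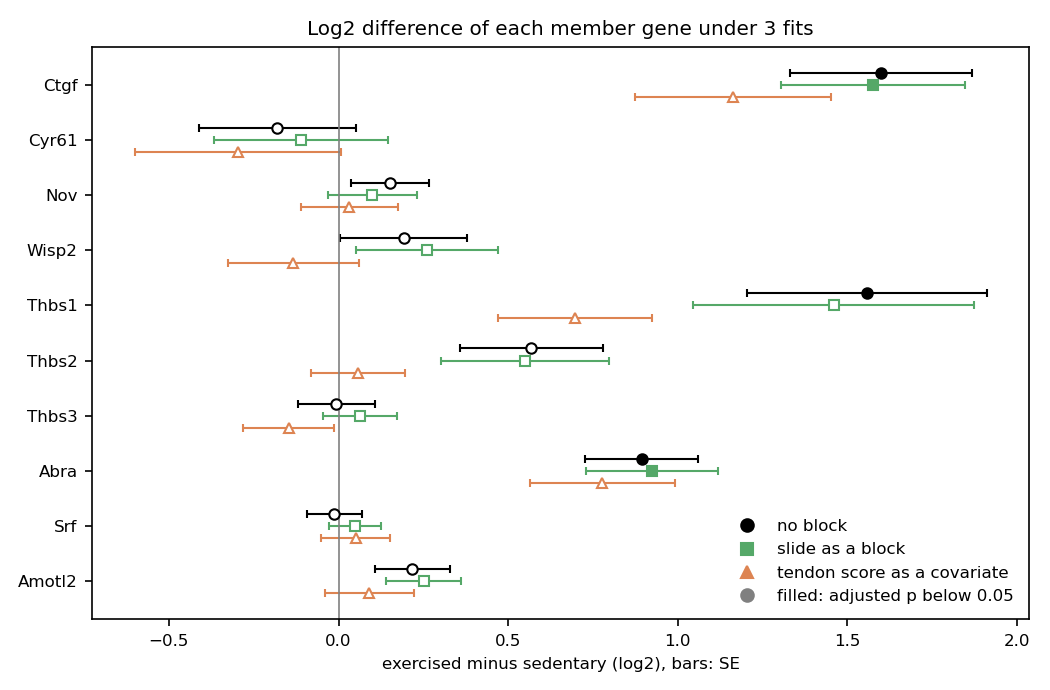
Log2 difference between exercised and sedentary mice with its SE for each gene, in the fit without a block (circles), blocked by slide (squares) and adjusted for the tendon score (triangles); filled symbols are past an adjusted p of 0.05. Thbs1 moved from 1.56 to 0.70 with the tendon score, Ctgf from 1.60 to 1.16 and Abra from 0.89 to 0.78.

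Relations to the tendon score were then computed within each group for all 10 genes, 20 relations chosen after the data had been seen. Thbs1 and the score had Pearson r = 0.984 in sedentary mice (n = 6, exact permutation p = 0.00833, adjusted 0.0833; Spearman rho 0.829, exact p = 0.0583). Without the 2 mice farthest from the median score r was 0.594, so this relation rested on those mice. Thbs2 had r = 0.981 in exercised mice (exact permutation p = 0.00833, adjusted 0.0833; rho 0.886, exact p = 0.0333), and 0.83 without 2 mice. In exercised mice Thbs1 had r = 0.80 (exact permutation p = 0.0639, adjusted 0.256; rho 0.714, exact p = 0.136; r = 0.503 without 2 mice). Ctgf had r = 0.735 in exercised mice (exact permutation p = 0.0931, adjusted 0.306; rho 0.829, exact p = 0.0583; 0.752 without 2) and 0.485 in sedentary mice (exact permutation p = 0.347, adjusted 0.463; rho 0.116, exact p = 0.844; -0.34 without 2). Abra had r = 0.0586 in exercised mice (exact permutation p = 0.936, adjusted 0.981; rho 0.0857, exact p = 0.919; -0.219 without 2) and 0.683 in sedentary mice (exact permutation p = 0.138, adjusted 0.306; rho 0.257, exact p = 0.658; -0.699 without 2). The sign turned without 2 mice for Ctgf in sedentary mice and for Abra in both groups. None of the 20 passed after adjustment. The part of tendon RNA in the results on Ctgf, Thbs1 and Abra was not tested beyond these values.

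**Figure D3:**
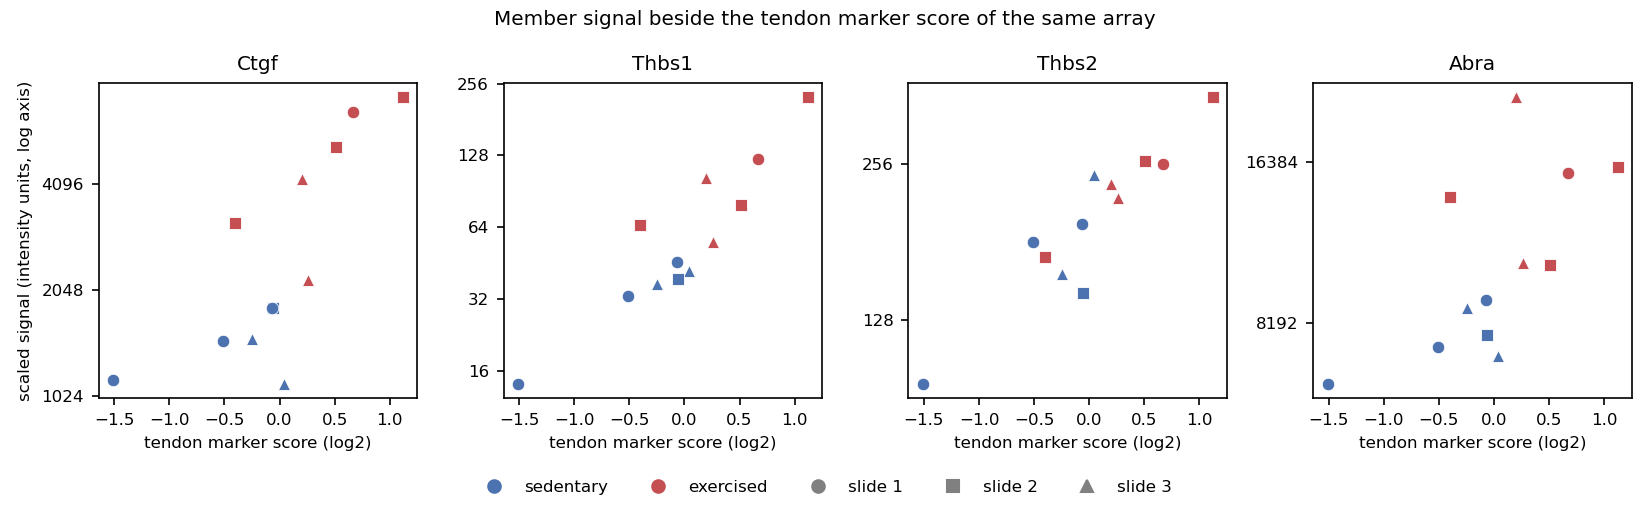
Scaled signal (intensity units, log axis) of Ctgf, Thbs1, Thbs2 and Abra against the tendon marker score of the same array, for exercised (red) and sedentary (blue) mice, with point shape for the slide. The exercised mouse s2m3 lies at the upper right with a score of 1.12, and the sedentary mouse s2m2 at the left with -1.51.

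Other cell type markers were read beside the 10 genes. Muscle fibre markers such as Acta1 and Ckm were above background on 12 arrays, as the labelled tissue requires, with 0 of 8 called. Of 10 smooth muscle markers 2 rose (Myh11 and Cnn1) and 1 fell (Kcnj8), and of 8 endothelial markers 1 fell (Kdr). Myh11 had an adjusted p of 0.0421, or 0.134 when blocked by slide. Among all genes 1.8% were called higher and 1.84% lower. None was called among 8 fibroblast, 4 platelet, 6 macrophage, 6 white adipocyte, 3 brown adipocyte and 6 Schwann markers. The scores of the endothelial (exact permutation p = 0.0173), Schwann (0.0368) and brown adipocyte (0.0455) lists differed before adjustment. Exercised minus sedentary, these scores differed by -0.21, 0.26 and 2.01 on the log2 scale. None of the 10 scores differed after adjustment (adjusted p = 0.114 for each of these 3). Thbs1 lost its call with the smooth muscle score (adjusted p = 0.0802) or the platelet score (0.0617) as a covariate, and Abra with the brown adipocyte score (0.0615). The platelet genes Gp9 and Gp1ba were above background on 3 and 1 arrays.

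Relations between pairs of the 10 genes were computed within each group, and none passed after adjustment. Ctgf and Amotl2 ranked the 6 exercised mice in the same order (r = 0.947, exact permutation p = 0.00694; rho 1.00, exact p = 0.00278; r = 0.975 without the 2 mice farthest from the median). In exercised mice Ctgf and Cyr61 had r = 0.931 (exact permutation p = 0.00972; rho 0.886, exact p = 0.0333; 0.837 without 2), and Thbs1 and Amotl2 had r = 0.944 (exact permutation p = 0.00417; rho 0.943, exact p = 0.0167; 0.89 without 2). Among sedentary mice r was 0.727 for Ctgf and Amotl2 (exact permutation p = 0.111; rho 0.638, exact p = 0.200) and 0.457 for Ctgf and Cyr61 (exact permutation p = 0.392; rho 0.319, exact p = 0.544). These turned to -0.267 and -0.926 without 2 mice. Cyr61 and Amotl2 had r = 0.937 in exercised mice (exact permutation p = 0.0167; rho 0.886, exact p = 0.0333; 0.825 without 2) and 0.788 in sedentary mice (exact permutation p = 0.075; rho 0.429, exact p = 0.419; 0.451 without 2). Thbs1 and Amotl2 had r = 0.121 in sedentary mice (exact permutation p = 0.768; rho 0.0286, exact p = 1.00; -0.938 without 2). Of 90 relations between pairs of the 10 genes within groups, chosen after the data had been seen, 9 had an unadjusted p below 0.05 and 0 an adjusted one, with 0.25 the smallest. A difference in correlation between the groups was not tested, and slides hold too few mice of a group for values within them.

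**Figure D4:**
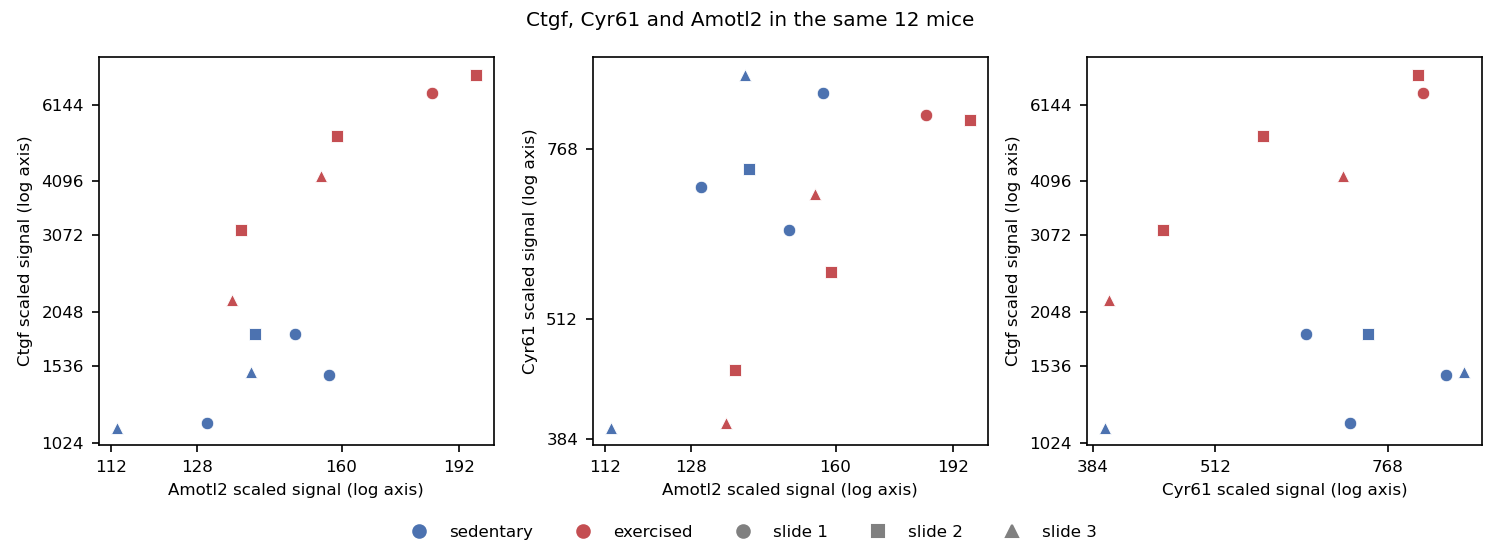
Scaled signals of Ctgf, Cyr61 and Amotl2 against each other on log axes, 1 point for each mouse, with exercised in red, sedentary in blue and point shape for the slide. The 6 exercised mice lie in the same order for Ctgf and Amotl2, and at like Cyr61 signals they lie above the sedentary mice for Ctgf.

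The spread within groups differed among the genes. The residual SD on the log2 scale was 0.68 for Thbs1, 0.51 for Ctgf and 0.44 for Cyr61, above a median of 0.19 over all genes, while it was 0.13 for Srf. After removal of group means over 12 arrays, the genes most like Ctgf that are reported here were 5430401F13Rik (r = 0.90) and the TEAD factor gene Tead2 (0.89). Those most like Thbs1 were the actin-bundling gene Pls3 (0.97), the collagen chaperone gene Serpinh1 (0.96) and the matrix gene Tnc (0.94). Those most like Abra were the stress factor gene Atf3 (0.93), Trib1 (0.91) and the chaperone gene Hspa1a (0.90). These are descriptions over arrays that share slides and scaling, with no test.

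Receptors for CCN proteins and thrombospondins gave 1 higher and 1 lower of 15, with a median of 0.04. Among all genes 1.8% were called higher and 1.84% lower. The heparan sulphate proteoglycan gene Sdc4 rose by a log2 difference of 0.42 (adjusted p = 0.0168), and the lipoprotein receptor gene Scarb1 fell by 0.52 (0.0239, or 0.0858 when blocked by slide). The Wnt coreceptor gene Lrp6 had 0.21 (0.265).

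Of 25 cytoskeletal targets of SRF 2 rose and 0 fell, with a median of 0.20. The share of all genes called was 1.8% higher and 3.64% in either direction. The smooth muscle calponin gene Cnn1 rose by 0.91 (0.00547) and the myosin light chain kinase gene Mylk by 0.47 (0.0472), while the tropomyosin gene Tpm4 had 0.42 (0.0619). Cnn1 is also on the smooth muscle marker list.

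Of 24 Hippo-YAP genes 1 rose and 0 fell, with a median of 0.02. Beside each list named here, 1.8% of all genes were called higher and 3.64% in either direction. Such small counts are not read as a response of a pathway. Wwc2, an upstream Hippo activator, rose by 0.28 (adjusted p = 0.0449, or 0.131 when blocked by slide), the kinase gene Lats2 had 0.27 (0.0874), and Tead2 had 0.44 (0.126). Of 20 genes of the YAP target signature only Ctgf rose and 0 fell, with a median of 0.09. Dock5 and Lats2 of that signature had 0.34 (0.0761) and 0.27, and the stress gene Gadd45b had -1.01 (0.116). Of 18 TGF-beta genes 2 rose and 0 fell, with a median of 0.04. The SMAD corepressor gene Skil rose by 0.57 (0.00791) and the latent TGF-beta binding gene Ltbp2 by 0.74 (0.0422, or 0.0551 when blocked by slide), while Tgif1, another corepressor, had 0.64 (0.0616).

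**Figure D5:**
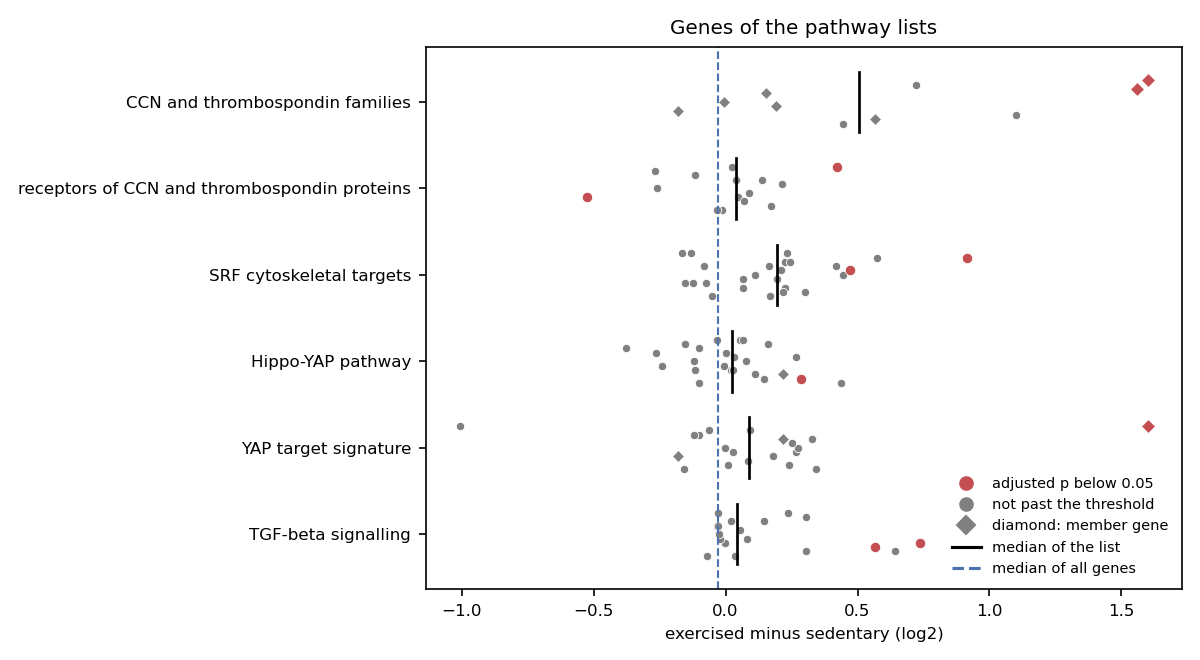
Log2 difference between exercised and sedentary mice of each tested gene of 6 pathway lists, with called genes in red, member genes as diamonds, the median of each list as a black line and the median of all genes (-0.03) dashed. List medians lie between 0.02 and 0.20 except for the CCN and thrombospondin families at 0.51.

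Whether the difference between exercised and sedentary mice varied between the title sets was tested as an interaction. None of the 10 genes passed in limma, and the smallest unadjusted p was 0.0549, for Srf (adjusted p = 0.569). Over all 16527 genes 0 passed and 1445 (8.74%) had an unadjusted p below 0.05. Ctgf differed by 1.08 in set 1 and 1.85 in set 2. For array quality, 23191 ± 957 probes were well above background in exercised and 23043 ± 1188 in sedentary mice (exact permutation p = 0.805). The 75th percentile of the signal was 206 ± 20.1 in exercised and 190 ± 24.9 in sedentary mice (exact permutation p = 0.229). A test that does not pass does not show equal quality.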

How the data were processed

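Quadriceps RNA of 6 exercised and 6 sedentary mice was read on 12 single-colour arrays, whose number limits the precision. The deposited scanner files hold spot intensity, extracted by the authors with Agilent Feature Extraction 10.5.1.1 per the file headers (9.1 per the submitters' processing notes) and already background-subtracted. From these, control and outlier spots were left out, spots of a probe averaged, log2 taken and each array's 75th percentile subtracted. Printed signals were scaled to a 75th percentile of 196. Probes well above background on at least 6 of 12 arrays were kept (22918 of 41174), and the probe with the highest mean level represented its gene. Groups came from the labels. The deposited value table, in intensity units, served as an alternative source.

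Groups were compared with limma 3.58.1 in R 4.3.3 without a block, with Benjamini-Hochberg adjustment over 16527 rows and calls at an adjusted p below 0.05. The pipeline was tested on simulated data. Whether mice of a group came from separate litters or cages is not given. The tests take the mice as independent, and p-values could be too low if mice of a group shared a litter or cage. The 3 slides held 1 and 3, 3 and 1, and 2 and 2 exercised and sedentary arrays, so slide was tried as a block. Named genes are the 10 members, the 3 non-members with the smallest p in each pathway list, the 3 genes most like Ctgf, Thbs1 and Abra, and cell type markers, of which 1 list and 1 gene are not reported here. Other markers were picked with their values in view. The members, lists and alternatives were chosen with earlier results of these data known. Alternatives covered scaling, background, filters, probe choice, variance model, threshold, blocks, marker covariates and leaving out arrays. Added after the data were seen were a fit without a block on the 8 arrays of the replicate block, a fit without 2 arrays, a normexp correction with limited background, and the correlations.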

Additional observations from a re-analysis of the deposited data

Results flagged for a closer look

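Of 20 groups of 6 values checked for a value far from the rest, 2 held one, and chance gives about 1 in 20. For Thbs1, sedentary s2m2 was the lowest at 14.1, with the next mouse at 32.9, and the gap was 0.716 of the range of the group. For Thbs3, exercised s2m1 was the lowest at 370, with the next mouse at 528, and the gap was 0.705 of the range. The cause of these gaps was not tested.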

How the results depend on the processing

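Ctgf kept its direction in 39 of 39 alternatives and its call in 32, Abra in 39 and 30, and Thbs1 in 39 and 24. Leaving out each array in turn, Ctgf and Abra kept their calls in 12 of 12 fits and Thbs1 in 8. These fits called 419 to 572 genes (216 to 280 higher and 198 to 303 lower), of which 2 to 3 were members, against 601 (297 and 304) with all arrays, and found 7 to 8 unequal pairs of 8.

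Slide as a block called 348 genes (192 higher and 156 lower), and within slides 1, 2 and 3 alone 0 (0 and 0), 8 (1 and 7) and 0 (0 and 0) were called, with 0 members in each. No probe filter gave 316 (169 and 147), with Thbs1 at an adjusted p of 0.0723. Median scaling gave 408 with 189 lower, and an adjusted p below 0.10 gave 1012 with 581 lower. The tendon covariate gave 316 (126 and 190) with 0 members, the brown adipocyte covariate 334 (179 and 155), and the smooth muscle covariate 194 lower. Without both exercised s2m3 and sedentary s2m2 there were 377 (192 and 185). Planned normexp gave 0 (0 and 0) and 0 members. Its fit put the median signal of 4 arrays far above that of the others, and with limited background 501 genes and 3 members were called.

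The replicate block, on the 8 arrays whose numbers occur in both groups, called 29 genes (22 and 7) and 0 members, with adjusted p of 0.0568 for Ctgf, 0.116 for Thbs1 and 0.230 for Abra. The same 8 arrays without a block gave 130 (79 and 51) and 0 members. The same-numbered arrays had correlations of 0.153, -0.188, 0.119 and 0.283, and 1 of 4 correlated best with its own number. Whether the numbers pair the mice is not given in the labels, and these 4 values cannot decide it.

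Directions turned only in genes that were not called. Thbs3 was 0.103 with normexp, 0.0147 with limited normexp, 0.0622 with slide as a block, 0.141 and 0.0820 within slides 1 and 3, 0.0174 with title set as a block, 0.107 with the replicate block and on the same 8 arrays, 0.0429 with the smooth muscle covariate, 0.0189 with brown adipocyte and 0.0142 with platelet. Srf was 0.177 with normexp, 0.0154 with limited normexp, 0.0108 with array weights, 0.0481 with slide as a block, 0.0879 and 0.0834 within slides 1 and 3, 0.0149 with the replicate block and on the same 8 arrays, 0.0503 with the tendon and 0.0114 with the smooth muscle covariate, and 0.0213 without both arrays. Cyr61 was 0.0509 with normexp, 0.188 within slide 1 and 0.133 with brown adipocyte. Nov was -0.0257 within slide 1, and Wisp2 was -0.134 with the tendon covariate. Leaving out each array gave -0.0492 to 0.0959 for Thbs3 and -0.0385 to 0.0463 for Srf. The cause of these changes was not tested.

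The level of dim probes limits what can be read: the 2 other Thbs1 probes were above background on 1 array each. The tested Thbs1 probe was dim in sedentary mice too, and its log2 difference was 1.56 in the main fit and 0.74 with limited normexp.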
